A study of Mus musculus with 36 samples.

Results

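Cytochrome P450 genes of families 1 to 4 were followed in the liver of mice with and without the insulin receptor in hepatocytes. Members were the genes whose array name starts with Cyp, a family digit from 1 to 4, a letter and a number, without pseudogene names ending in -ps. The names of 78 genes matched, and 68 were kept, those with a probe well above background on 6 or more of 36 arrays, out of 23054 genes tested. Each gene is represented by its brightest probe. The 10 genes not kept were Cyp2b19, Cyp2b23, Cyp2c65, Cyp2c66, Cyp2j11, Cyp4a29, Cyp4a30b, Cyp4f37, Cyp4f40 and Cyp4x1os, which is an antisense name. Of the 68 members, 56 were well above background on all 36 arrays and 12 on fewer.

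The animals were 36 male C57BL/6J-background mice, aged 11 weeks and fed chow without restriction, with 1 array of whole-liver RNA per mouse. Knockout mice (IRLKO in the labels, IRhep-/- in the series text) carried IRlox/lox alleles, in which loxP sites surround the fourth exon of the insulin receptor gene Insr, and TTR-CreTam, a tamoxifen-activated Cre driven by the transthyretin promoter. Controls (IRLWT, IRhep+/+) are named in the series text as the controls of this line. The sources used here give neither the tamoxifen schedule nor whether controls carried Cre or received tamoxifen, so effects of Cre or of the drug cannot be told apart from loss of the receptor. Livers were taken at Zeitgeber time (ZT, hours after lights on) 8, 12 or 16, with lights off at ZT12, from 6 mice of each genotype at each time.

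P450 enzymes are haem proteins of the endoplasmic reticulum that insert an oxygen atom into a substrate, using electrons passed on by P450 reductase. Families 1 to 3 oxidise drugs, toxins, steroids and arachidonic acid, and family 4 hydroxylates fatty acids at the far end of the chain. In liver their genes are known as targets of the receptors AhR, CAR, PXR and PPARα. In mouse liver many of them also differ between males and females, through the sex-specific pattern of growth hormone release acting on STAT5B, and several are restricted to the hepatocytes around the central or the portal vein.

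Several members are close copies. The 250 bases before the transcription start (RefSeq, GRCm38.p6, in the direction of transcription, 5′ to 3′) are shown for Cyp3a44, Cyp3a16, Cyp2b9 and Cyp2a5. The probe ratios of Cyp3a44 and Cyp3a16 were far apart. Whether the Cyp3a16 probe also reads other Cyp3a transcripts was not tested. Cyp2b9 and Cyp2a5 each had probe ratios near those of a close copy, but the Cyp2a4 probe is also listed for Cyp2a5. Capitals mark letters that differ from the partner: Cyp3a44 and Cyp3a16 against each other, Cyp2b9 against Cyp2b13, and Cyp2a5 against Cyp2a4.

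Cyp3a44, chr5:145805875-145806124, minus strand: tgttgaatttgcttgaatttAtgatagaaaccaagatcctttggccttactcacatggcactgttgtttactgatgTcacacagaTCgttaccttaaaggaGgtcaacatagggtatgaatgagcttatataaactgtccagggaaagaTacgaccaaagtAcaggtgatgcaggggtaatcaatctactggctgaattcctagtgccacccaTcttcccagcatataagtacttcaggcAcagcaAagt

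Cyp3a16, chr5:145469724-145469973, minus strand: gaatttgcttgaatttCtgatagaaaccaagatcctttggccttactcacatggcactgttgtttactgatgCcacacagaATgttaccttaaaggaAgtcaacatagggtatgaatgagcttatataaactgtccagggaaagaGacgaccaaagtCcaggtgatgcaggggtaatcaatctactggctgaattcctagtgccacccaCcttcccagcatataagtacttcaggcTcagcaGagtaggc

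Cyp2b9, chr7:26173159-26173408, plus strand: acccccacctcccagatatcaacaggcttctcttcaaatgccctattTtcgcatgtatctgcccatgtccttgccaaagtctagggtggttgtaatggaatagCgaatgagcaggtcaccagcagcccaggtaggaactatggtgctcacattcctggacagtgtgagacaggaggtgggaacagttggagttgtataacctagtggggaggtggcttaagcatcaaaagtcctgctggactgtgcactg

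Cyp2a5, chr7:26835089-26835338, plus strand: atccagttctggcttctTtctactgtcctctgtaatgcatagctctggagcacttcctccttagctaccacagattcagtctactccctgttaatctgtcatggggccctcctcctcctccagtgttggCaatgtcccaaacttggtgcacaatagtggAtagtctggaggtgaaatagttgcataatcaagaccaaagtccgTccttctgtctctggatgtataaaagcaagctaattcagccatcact

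Cyp3a44 and Cyp3a16 matched at 236 of 246 aligned bases, Cyp2b9 and Cyp2b13 at 248 of 250, and Cyp2a5 and Cyp2a4 at 245 of 249. Promoters were found for 53 members. Among 90 pairs of members within a subfamily, with short alignments left out, 14 were at least 90% identical over the aligned part of 300 bases. The 300 bases run 50 bases past the start. The TATA motif TATAAA, on either strand, lay in 24 of the 53 (45.3%), against 13.6% of all RefSeq promoters given. GCGTG, the core of the AhR site, lay in 12 (22.6%, against 32.4% of all). The STAT5 motif TTCNNNGAA lay in 2 (3.77%, against 8.3% of all), Cyp4b1 and Cyp4f13. Direct repeats of AGGTCA spaced by 1 or by 4 bases, the form bound by PPARα and by CAR, lay in 0 of the 53, against 0.0396% and 0.0152% of all promoters. These are letter matches in a short window.

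Close copies also share probes. The first 30 bases of the 60-base probes are shown for the strongest fall, the strongest rise, and the gene whose 3 probes disagree (positions are those of the whole probe on mm9, as deposited).

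Cyp4a12a, chr4:115005258-115005317, plus strand: atgcatatctgaaagagccaattttcaacc

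Cyp4a12b, chr4:115111580-115111639, plus strand: cctttcagcttacatttaagagtcttgcca

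Cyp3a44, chr5:146585717-146585776, minus strand: cactgagctttctcagtgtctgtgcaagtt

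Cyp2u1 other, chr3:131000768-131000827, minus strand: agcagcttcgacgaggactacctgttctac

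Cyp2u1 brightest, chr3:130996343-130996402, minus strand: actttatcattggtgtgtgtgtgtgtgtgt

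Cyp2u1 other, chr3:130997965-130998356, minus strand: tgtccatggtggtgccgctcgccattcctc

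The array annotation lists the Cyp4a12a probe also for Cyp4a12b, the Cyp2a4 probe also for Cyp2a5, the Cyp2b9 probe also for Cyp2b10 and the Cyp4a10 probe also for Cyp4a32. The probes of Cyp2c40, Cyp2c68 and Cyp2c69 are listed for one another, and the Cyp3a11 probe is also listed for Cyp3a41a, Cyp3a41b and Cyp3a44. Signals of these genes may therefore not be separate measurements. The exon or untranslated region that each probe reads was not determined.

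The arrays had 75th percentile signals of 311 to 525 intensity units, and 53.7% to 63.1% of probes well above background. Signals below are on a log2 scale with each array's own 75th percentile set to 0, and levels of different probes are not compared. Ratios are knockout over control on the log2 scale with the standard error (SE) of the limma fit, and a gene is called when its Benjamini-Hochberg adjusted p over all 23054 genes is under 0.05. Insr itself had ratios of -1.77, -1.88 and -1.65 in the order ZT8, ZT12 and ZT16, with no overlap between groups at any time. Of 6 hepatocyte markers, 0 were higher and 2 lower at ZT8, 1 and 3 at ZT12, and 0 and 3 at ZT16. Of all genes, 16.7%, 19.6% and 19.9% were higher and 18.7%, 22.6% and 20.0% lower. Alb had ratios of -0.41, -0.35 and -0.39, and Ttr, whose promoter drives the Cre, of -1.12, -1.02 and -0.97, all called, while Apoa1 (-0.07, 0.13 and 0.21) and Cps1 (0.25, 0.36 and 0.02) were not called, and Tat was higher at ZT12 (0.55). Fewer hepatocytes and less RNA per hepatocyte cannot be told apart in whole-liver RNA. A set of 3 arrays stood apart from their groups on many members. Control ZT16 replicate 6 was the lowest of its group on 8 and the highest on 11 of the 22 members described in full, control ZT12 replicate 2 on 6 and 9, and knockout ZT8 replicate 3 on 11 and 1. On Insr, control ZT16 replicate 6 read -1.24, the highest of the ZT16 controls. Calls are with all arrays unless stated, and those gained or lost without these 3 are given after the counts.

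The P450 genes of families 1 to 4 were shifted downwards in the knockout, with whole subfamilies low and a few genes much higher. At ZT8, 37 of the 68 were called (54.4%, against 35.4% of all genes tested), 13 higher (against 16.7% of all genes) and 24 lower (against 18.7%). At ZT12, 45 were called (66.2%, against 42.2%), 16 higher (19.6% of all genes) and 29 lower (22.6%). At ZT16, 34 were called (a share of 50%, against 39.9%), 8 higher (19.9% of all genes) and 26 lower (20.0%). These shares of all genes also apply to the counts of subfamilies and lists elsewhere in the text. Cyp2u1 is among those counted as higher at ZT8 and ZT12, by its brightest probe, while its other 2 probes were lower. The median ratio of the members was -0.25, -0.25 and -0.14 at the 3 times, against 0.01, -0.02 and 0.00 over all genes.

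Large differences took up much of these counts. Members called with at least a 2-fold difference numbered 24 at ZT8 (35.3% of members, against 6.15% of all genes), 24 at ZT12 (35.3%, against 7.29%) and 25 at ZT16 (36.8%, against 7.03%). The 6 knockouts and the 6 controls did not overlap for 26 members at ZT8 (15.5% of all genes), 23 at ZT12 (21.3%) and 27 at ZT16 (19.2%). In all, 52 members were called at 1 time or more (60.4% of all genes). Of the 68, 20 were lower at all 3 times (10.6% of all genes), and 5 were higher at all 3 (8.89% of all genes), namely Cyp3a44, Cyp4a10, Cyp4a31, Cyp4f16 and Cyp4f18. At none of the times were 16 members called (39.6% of all genes), among them Cyp2e1, Cyp2c29, Cyp2c37, Cyp2c50, Cyp2c54 and Cyp3a11. By a dimmer second probe, Cyp2c50 was called lower at ZT12 and ZT16. Cyp1b1 and Cyp2c39 reached the minimum of 6 arrays only through knockouts, so their calls, 1 of those higher at each time, follow in part from how they were kept.

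Without the 3 arrays that stood apart, several of these calls changed. Cyp2c37 was then higher at all 3 times (0.73, 0.52 and 0.61, with adjusted p of 0.0023, 0.019 and 0.0090), against 0.38, 0.51 and 0.56 with all arrays. At ZT8, Cyp2c44 (0.28, adjusted p = 0.040), Cyp2c50 (0.54, 0.025), Cyp3a13 (0.39, 0.0041) and Cyp4f15 (0.33, 0.0028) were also called higher, and Cyp2d10 (-0.23, 0.057) and Cyp2j9 (-0.43, 0.070) no longer passed. At ZT12, Cyp2c67 was gained (0.51, adjusted p = 0.043), and at ZT16, Cyp2c55 (-0.80, 0.027) and Cyp2c39. For the change from ZT8 to ZT16 in controls, Cyp2c44 was gained (-0.39, 0.0076) and Cyp3a25 (-0.48, 0.090), Cyp3a57 (-0.44, 0.14) and Cyp3a44 (1.39, 0.11) were lost. In knockouts Cyp2d13 (-0.91, 0.020), Cyp2j13 (-0.28, 0.0028) and Cyp4f15 (-0.43, 0.0002) were gained and Cyp2f2 (0.99, 0.13) was lost. The genotype ratio of Cyp4a14 then differed between ZT16 and ZT8 (-2.71, adjusted p = 0.042), and that of Cyp3a44 did not pass (-2.59, 0.056).

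**Figure D1:**
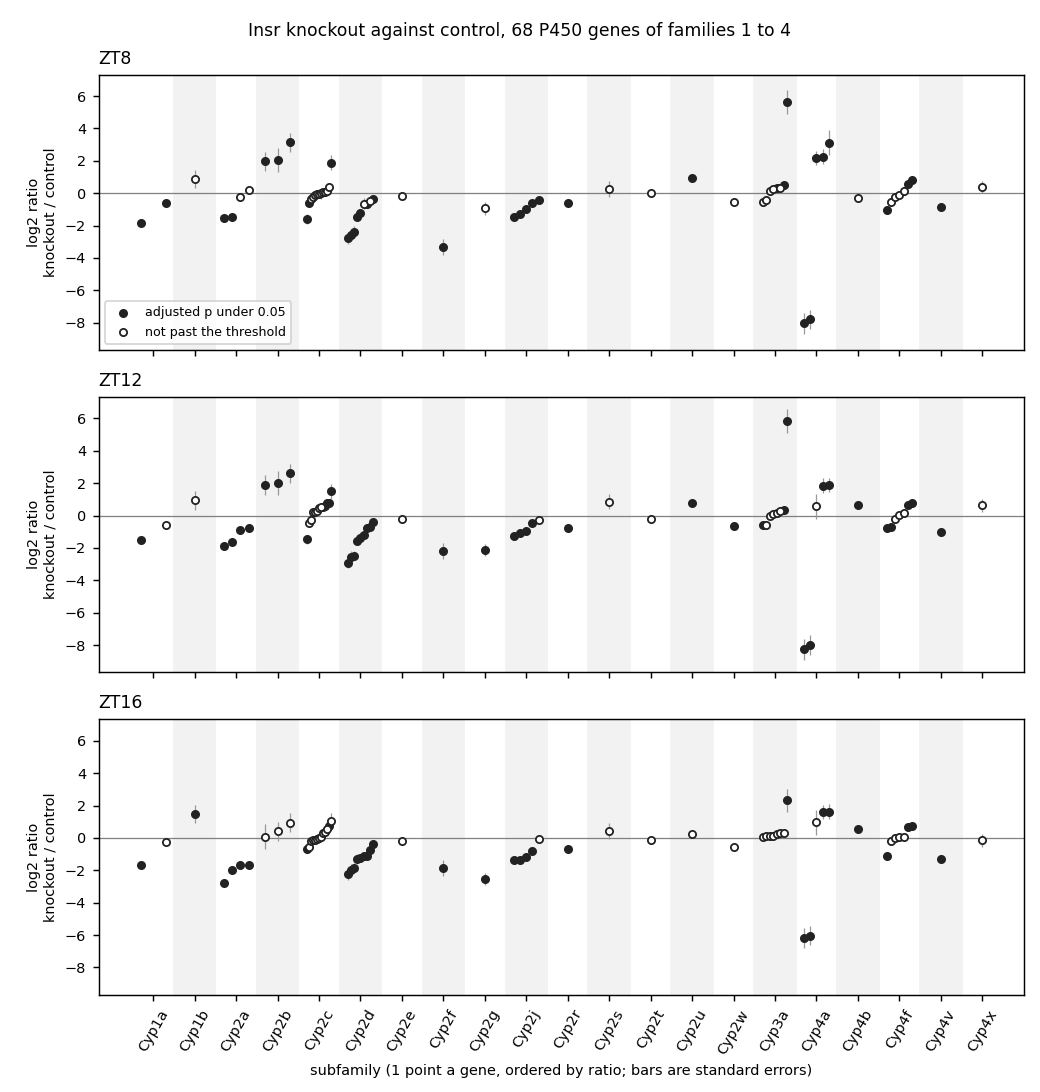
Log2 ratio of knockout over control for each of the 68 members, grouped by subfamily on the horizontal axis, with 1 panel per time; points are genes, bars are standard errors, and filled points have an adjusted p under 0.05. All 9 Cyp2d genes lie below 0 and are called at ZT12 and ZT16, the 3 Cyp2b genes lie at 1.89 to 2.61 at ZT12, and the Cyp4a points split into a pair near -8 and others above 0 at ZT8 and ZT12.

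The Cyp2d subfamily was lower as a block. Of its 9 kept genes, 7 were called lower at ZT8 and all 9 at ZT12 and ZT16 (at ZT8 Cyp2d10 no longer passed without the 3 arrays), with none higher, and the median ratios were -1.24, -1.37 and -1.23. Cyp2d9, a male-biased testosterone hydroxylase, lay at 4.88 to 5.46 in ZT8 controls (median 5.06) and at 1.41 to 3.30 in ZT8 knockouts (median 2.54). At ZT12 controls lay at 4.63 to 5.75 (median 5.21) and knockouts at 2.09 to 3.43 (median 2.92), and at ZT16 controls at 3.54 to 5.16 (median 4.95) and knockouts at 1.67 to 3.39 (median 3.02). No knockout reached the control range at any time, and the lowest ZT16 control was replicate 6. The ratio was -2.58 ± 0.29 (adjusted p = 3.5e-08), or 5.98-fold lower, at ZT8, -2.47 (5.4e-08) at ZT12 and -1.83 (8.6e-06) at ZT16.

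Cyp2d34 showed a similar picture. Its medians were 0.21, 0.41 and 0.02 in controls and -2.69, -2.28 and -2.18 in knockouts at ZT8, ZT12 and ZT16. Controls spanned 0.12 to 0.63 at ZT8, -0.24 to 0.86 at ZT12 and -1.46 to 0.31 at ZT16, and knockouts -3.54 to -1.58, -3.68 to -1.39 and -3.95 to -1.84. The groups were separate at each time. Its ratios were -2.79 ± 0.35 (adjusted p = 2.3e-07), -2.91 (7.9e-08) and -2.23 (7.2e-06).

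Cyp2d40 lay at 5.82 to 6.54 (median 6.30) in ZT8 controls and at 2.02 to 4.91 (median 4.32) in ZT8 knockouts, a ratio of -2.41 ± 0.38 (adjusted p = 1.1e-05). At ZT12 it was 6.04 to 6.75 (median 6.35) against 2.54 to 5.03 (median 3.70), and at ZT16 5.50 to 6.62 (median 6.17) against 3.08 to 4.80 (median 4.39). Groups did not overlap at any time, while the knockouts were more widely spread than the controls. The later ratios were -2.59 (adjusted p = 2.7e-06) and -1.96 (0.00014). Cyp2d11, Cyp2d12 and Cyp2d26 were also without overlap at all times, with ZT8 ratios of -1.45, -1.24 and -0.64. Cyp2d10 was lower by the smallest amount of the subfamily at each time (-0.36, -0.40 and -0.39). Cyp2d13 and Cyp2d22 passed the threshold at ZT12 and ZT16 and not at ZT8. In a fit of each probe on its own, a dimmer second Cyp2d13 probe was called lower at ZT8 too (-0.89).

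The strongest falls were those of the Cyp4a12 pair, male-biased fatty acid hydroxylases that act on arachidonic acid. Cyp4a12a lay at 2.58 to 3.43 (median 3.10) in ZT8 controls and at -6.44 to -3.22 (median -4.92) in ZT8 knockouts. At ZT12 controls lay at 2.85 to 4.46 (median 3.41) and knockouts at -5.86 to -2.64 (median -4.59), and at ZT16 controls at -1.19 to 3.47 (median 2.10) and knockouts at -5.05 to -3.25 (median -4.31). The groups were far apart, and the ZT16 control at -1.19 was replicate 6. In knockouts the probe was well above background on 3, 4 and 5 of 6 arrays at ZT8, ZT12 and ZT16.

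The Cyp4a12a ratios were -7.79 ± 0.60 (adjusted p = 2.5e-11), -8.00 (1e-11) and -6.04 (2.6e-09). The size rests on how background is treated at the dim end: with normexp background correction it was -5.49, -6.01 and -4.28. Without control ZT16 replicate 6 the ZT16 ratio was -6.69. Cyp4a12b, with its own probe, had control medians of 3.70, 3.91 and 2.60 and knockout medians of -4.40, -4.66 and -3.89, without overlap. Controls ranged over 3.01 to 3.94, 3.33 to 4.92 and -0.62 to 4.05, and knockouts over -6.04 to -3.09, -5.62 to -1.95 and -4.63 to -2.71. Its ratios were -8.04 ± 0.64 (adjusted p = 4e-11), -8.27 (1.5e-11) and -6.19 (4.7e-09), or -5.78, -6.27 and -4.53 with normexp.

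The remaining Cyp4a genes, targets of PPARα that hydroxylate fatty acids, moved the other way. Of the PPARα list, 3 of the 4 genes were tested, and 3 were higher at ZT8, 2 at ZT12 and 2 at ZT16, with none lower. Cyp4a10 lay at 1.15 to 2.92 (median 1.62) in ZT8 controls and at 2.06 to 5.22 (median 4.18) in ZT8 knockouts. At ZT12 the values were 0.08 to 2.59 (median 0.98) against 2.47 to 4.13 (median 3.01), and at ZT16 1.52 to 3.07 (median 1.96) against 3.13 to 4.49 (median 3.59). The groups overlapped at ZT8 and ZT12 and were separate at ZT16. Ratios were 2.16 ± 0.44 (adjusted p = 0.00025), or 4.48-fold, then 1.87 (0.00096) and 1.58 (0.0045).

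Cyp4a31 had control medians of 3.17, 2.40 and 3.62 and knockout medians of 5.72, 4.62 and 5.44. Controls ranged over 2.71 to 4.50, 1.74 to 4.36 and 3.01 to 5.36, and knockouts over 3.87 to 7.10, 3.84 to 5.71 and 4.80 to 6.35, so that groups overlapped at each time. It was higher by 2.24 ± 0.47 (adjusted p = 0.00033), 1.84 (0.002) and 1.62 (0.0061). Cyp4a14 was called at ZT8 alone, with a ratio of 3.13 ± 0.77 (adjusted p = 0.0019). There controls lay at -5.97 to -2.59 (median -4.54, 3 of 6 well above background) and knockouts at -3.98 to 0.90 (median -1.30), with overlap through knockout replicate 3. With normexp the ZT8 ratio was 1.42.

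At ZT12, Cyp4a14 was -6.22 to -1.18 in controls (median -5.14, 1 of 6 well above background) and -4.67 to -3.29 in knockouts (median -4.48). At ZT16 it was -5.16 to -1.87 (median -2.93) and -4.11 to -0.80 (median -2.12). The ranges overlapped widely, and the ratios of 0.58 (adjusted p = 0.57) and 0.96 (0.34) did not pass. Within knockouts Cyp4a14 fell from ZT8 to ZT12 by 2.77. The difference of its genotype ratio between ZT16 and ZT8, -2.16 ± 1.09, did not pass with all arrays (adjusted p = 0.23) and did without the 3 that stood apart (-2.71, 0.042).

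Cyp2f2, known for activating naphthalene and confined to periportal hepatocytes, fell from a tight control range. At ZT8 controls lay at 8.13 to 8.37 (median 8.25) and knockouts at 2.89 to 6.83 (median 4.95), at ZT12 at 7.94 to 8.58 (median 8.32) and 4.36 to 7.34 (median 6.07), and at ZT16 at 7.84 to 8.34 (median 8.25) and 5.65 to 6.70 (median 6.39). All knockouts were below all controls, and they differed among themselves by far more than controls did. The ratio was -3.34 ± 0.50 (adjusted p = 3.7e-06), or 10.1-fold lower, at ZT8, -2.20 (0.00067) at ZT12 and -1.86 (0.0034) at ZT16. Further periportal markers were mixed. Pck1 had ratios of 1.39, 1.42 and 1.28 and Gls2 of 0.62, 0.45 and 0.39, all called, Hal and Sds were higher at ZT12 and ZT16, Ass1 was not called, and Arg1 was lower at each time.

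Of 8 pericentral P450 genes, 1 was lower at ZT8, 2 at ZT12 and 2 at ZT16 (18.7%, 22.6% and 20.0% of all genes). With all arrays none was higher, though Cyp2c37 and Cyp2c50 gained calls as higher without the 3 arrays. In a fit of each probe on its own, a dimmer second Cyp2c50 probe was called lower at ZT12 (-0.94) and ZT16 (-0.77). Cyp1a2, which oxidises caffeine and aromatic amines and is a target of AhR, was the 1 gene of the 8 lower at each time. It lay at 3.53 to 3.72 (median 3.65) in ZT8 controls and 0.51 to 2.37 (median 1.99) in knockouts, at 3.27 to 3.87 (median 3.62) and 1.05 to 2.64 (median 2.42) at ZT12, and at 3.36 to 3.76 (median 3.60) and 0.62 to 2.24 (median 2.09) at ZT16. The groups were separate throughout. Ratios were -1.85 ± 0.23 (adjusted p = 2.6e-07), -1.50 (5.9e-06) and -1.67 (1.1e-06). Cyp2e1, the ethanol-oxidising enzyme, lay at 9.41 to 9.62 in ZT8 controls and 8.21 to 9.69 in knockouts, and its ratios of -0.21, -0.20 and -0.19 did not pass. Of 6 pericentral markers outside the P450s, 4 were higher and 0 lower at ZT8, 2 and 1 at ZT12, and 2 and 1 at ZT16. Among all genes, 16.7%, 19.6% and 19.9% were higher. Axin2 and Lgr5 were higher at each time, Glul was lower at ZT12 only (-0.62), and Slc1a2 at ZT16 only (-0.41).

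The other AhR targets differed from Cyp1a2. Cyp1a1, dim in these livers, had ratios of -0.63 (adjusted p = 0.037), -0.55 (0.059) and -0.23 (0.46). Cyp1b1, mainly expressed outside hepatocytes and kept only through the knockouts, was called higher at ZT16, with 1.46 ± 0.57 (adjusted p = 0.039) after 0.85 and 0.93 at the earlier times. At ZT16 controls lay at -6.19 to -4.32 (median -5.66, 1 of 6 well above background) and knockouts at -5.09 to -2.83 (median -4.45, 4 of 6), so the groups overlapped near the detection limit. The call was lost with normexp (0.19, adjusted p = 0.19). Ahr itself did not pass at any time.

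**Figure D2:**
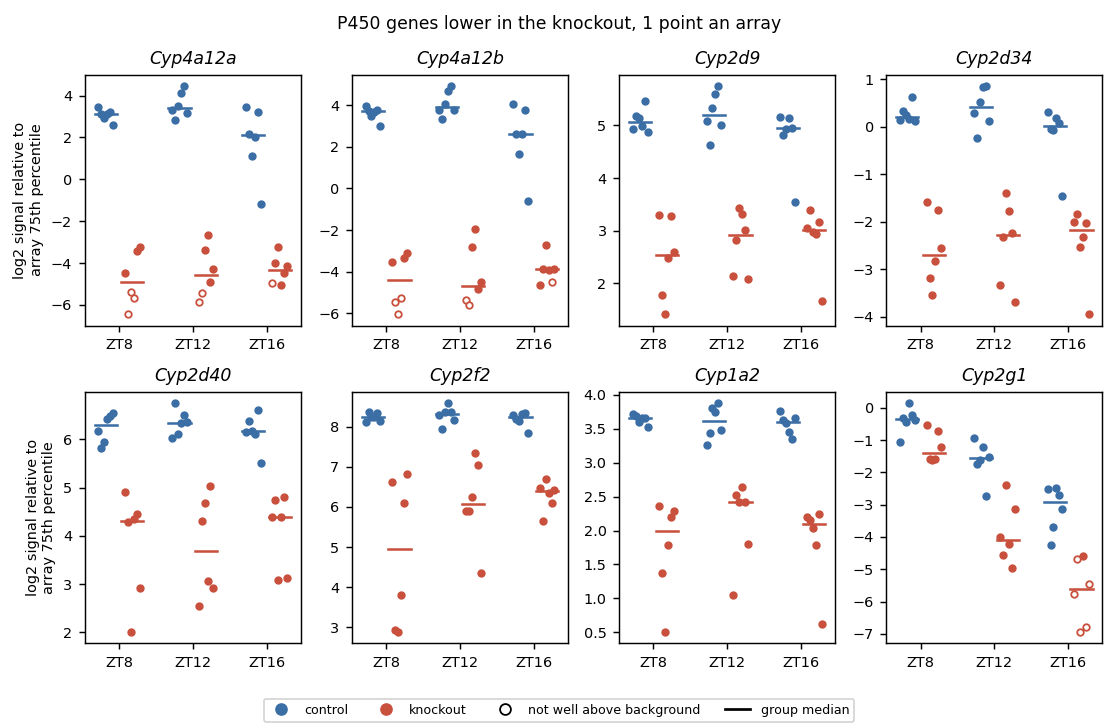
Log2 signal relative to the array's 75th percentile for 8 members lower in the knockout, by time, with 1 point per array, controls blue and knockouts red, open points not well above background and lines at group medians. Knockouts lie below controls without overlap at each time except for Cyp2g1, whose groups overlap at ZT8 and ZT12. Cyp2g1, Cyp4a12a and Cyp4a12b reach open points in the knockout.

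The Cyp2j genes, which make epoxides of arachidonic acid, were lower with little spread. Of 5, all were called lower at ZT8, and 4 at ZT12 and at ZT16, with medians of -1.01, -0.98 and -1.20. Cyp2j5 lay at 5.40 to 5.62 (median 5.49) in ZT8 controls and 3.15 to 4.38 (median 4.26) in knockouts, at 5.38 to 5.64 (median 5.45) and 4.00 to 4.40 (median 4.24) at ZT12, and at 5.46 to 5.71 (median 5.57) and 3.89 to 4.50 (median 4.08) at ZT16. No groups overlapped, and the ratios were -1.49 ± 0.13 (adjusted p = 3.9e-10), -1.25 (7.8e-09) and -1.39 (9.9e-10). Cyp2j8 (-1.27, -1.11 and -1.34) and Cyp2j13 (-1.01, -0.98 and -1.20) also had no overlap at any time. Cyp2j9 was called at ZT8 only (-0.61), and not there without the 3 arrays.

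Not all epoxygenases were low. Of the 4 on the list, 3 were lower at ZT8 and 2 at ZT12 and ZT16, while Cyp2c44 was higher at ZT12 and ZT16. Cyp2c44 lay at 5.95 to 6.27 (median 6.16) in ZT8 controls and 4.97 to 6.55 (median 6.46) in knockouts, where replicate 3 was the lowest. At ZT12 it lay at 5.48 to 6.14 (median 5.97) and 6.23 to 6.57 (median 6.53), and at ZT16 at 5.54 to 5.97 (median 5.71) and 6.11 to 6.83 (median 6.45). The groups overlapped at ZT8 and were separate later. Ratios were 0.04 ± 0.17 (adjusted p = 0.87), 0.55 (0.01) and 0.77 (0.0007), and the first was 0.28 (0.040) without the 3 arrays.

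The Cyp2c genes moved in both directions. Of 13, Cyp2c44 included, 1 was higher and 2 lower at ZT8, 5 higher and 1 lower at ZT12, and 1 higher and 1 lower at ZT16. Cyp2c40, Cyp2c68 and Cyp2c69, whose probes are listed for one another, were called higher at ZT12 only (0.80, 0.78 and 0.56), and the change of their ratio with time was not called. Cyp2c70, which makes muricholic acids from bile acids, was lower at ZT8 (-0.59) and ZT16 (-0.67). Cyp2c39, which acts on retinoic acid, was well above background on no control array and on 7 of 18 knockout arrays. It was kept only through the knockouts, so its difference is a description: against the lowest detectable signal it was at least 1.03-fold higher at ZT8 and at least 1.13-fold higher at ZT12.

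Cyp2c55, a target of CAR and PXR, fell in the knockout at the first 2 times. Controls lay at -0.96 to 0.09 (median -0.53) at ZT8, -1.67 to -0.92 (median -1.19) at ZT12 and -2.73 to -1.17 (median -1.52) at ZT16. Knockouts lay at -2.66 to -1.31 (median -2.05), -3.78 to -1.24 (median -2.92) and -2.68 to -1.82 (median -2.25). The groups were separate at ZT8 alone. Ratios were -1.58 ± 0.30 (adjusted p = 9.9e-05), -1.47 (0.00018) and -0.58 (0.12), and without the 3 arrays that stood apart the ZT16 ratio was -0.80 (0.027).

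With all arrays, targets of CAR and PXR, the sensors of drugs and toxins, did not move as a set. Of 9, 1 was higher and 1 lower at ZT8, 2 higher and 2 lower at ZT12, and 0 higher and 1 lower at ZT16. The shares over all genes were 16.7%, 19.6% and 19.9% higher and 18.7%, 22.6% and 20.0% lower. Without the 3 arrays that stood apart, Cyp2b10 (3.08), Cyp2c37 (0.73), Cyp2c50 (0.54) and Cyp3a13 (0.39) were higher at ZT8, and Cyp2c55 (-1.74) was lower. Cyp2c37 then also passed as higher at ZT12 (0.52) and ZT16 (0.61), and Cyp2c55 as lower at ZT16 (-0.80). Cyp3a11, the main drug-oxidising enzyme of mouse liver, had ratios of 0.31, 0.18 and 0.05, none called, and Cyp3a13 was higher at ZT12 (0.35, adjusted p = 0.019) and, without the 3 arrays, also at ZT8 (0.39). Cyp2c29 had ratios of -0.06, 0.19 and -0.03. Cyp2b10, the classical CAR target, was the exception in size. It lay at 0.45 to 4.10 (median 1.88) in ZT8 controls and 4.66 to 6.00 (median 5.27) in ZT8 knockouts, a ratio of 3.14 ± 0.59 (adjusted p = 9.6e-05) or 8.83-fold, without overlap.

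At ZT12, Cyp2b10 lay at 0.74 to 4.66 (median 2.06) in controls and 4.07 to 5.89 (median 4.55) in knockouts, a ratio of 2.61 (adjusted p = 0.00066), and at ZT16 at 2.98 to 6.01 (median 4.00) and 4.61 to 6.17 (median 4.92), a ratio of 0.93 (0.21). The ranges overlapped at both times, through control replicate 2 at ZT12. Control levels rose from ZT8 to ZT16 by 2.18 ± 0.59 (adjusted p = 0.0056), and knockout levels had a change of -0.03 (0.98). The difference of the genotype ratio between those times, -2.21 ± 0.84, did not pass (adjusted p = 0.094). A dimmer second probe gave 5.58, 3.62 and 1.19.

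Cyp2b9 and Cyp2b13, female-biased copies with nearly identical promoters, had similar ratios, and the Cyp2b9 probe is also listed for Cyp2b10. Cyp2b9 lay at 0.96 to 4.49 (median 2.08) in ZT8 controls and 3.85 to 5.43 (median 4.27) in knockouts, at 0.96 to 4.97 (median 1.96) and 3.59 to 5.09 (median 3.81) at ZT12, and at 2.41 to 6.02 (median 3.83) and 3.77 to 5.11 (median 4.31) at ZT16. All ranges overlapped, and the controls were the more widely spread group. Ratios were 1.96 ± 0.60 (adjusted p = 0.011), 1.89 (0.011) and 0.41 (0.62). Without the 3 arrays the ZT16 ratio was 0.84 (adjusted p = 0.20).

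Cyp2b13 had control medians of -3.98, -4.57 and -2.67 and knockout medians of -1.77, -2.31 and -2.18. Controls spanned -5.88 to -1.66, -5.51 to -1.18 and -4.65 to 1.51, and knockouts -3.08 to -0.82, -2.75 to -0.90 and -2.80 to -1.36, so the groups overlapped each time. In ZT8 and ZT12 controls the probe was well above background on 4 and 3 of 6 arrays. Ratios were 2.05 ± 0.75 (adjusted p = 0.033), 2.00 (0.032) and 0.09 (0.94). With normexp they were 0.83 at ZT8 and 0.59 at ZT12 and no longer called, and 1.20 and 0.99 in the authors' deposited table, also not called. In all, the 3 kept Cyp2b genes were higher at ZT8 and ZT12 and none at ZT16, but for none of them was the dependence of the ratio on time called.

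Cyp3a44, a female-biased member of the steroid and drug oxidising Cyp3a subfamily, rose most. It lay at -7.18 to -4.05 (median -4.52, 3 of 6 well above background) in ZT8 controls and 0.05 to 1.90 (median 0.66) in knockouts, and at -6.66 to -3.69 (median -5.53, 2 of 6) and -1.27 to 1.92 (median 0.84) at ZT12. At ZT16 controls lay at -4.37 to 0.76 (median -3.53, 6 of 6) and knockouts at -0.94 to -0.04 (median -0.20). Groups were far apart at ZT8 and ZT12, and at ZT16 only control replicate 6 reached above the knockouts.

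The Cyp3a44 ratios were 5.64 ± 0.72 (adjusted p = 3.3e-07), 5.83 (1.3e-07) and 2.32 (0.011), and with normexp 3.14, 2.98 and 1.22. Without control ZT16 replicate 6 the ZT16 ratio was 3.18. Within wash batches the ZT16 ratio was -1.27, 1.77 and 3.97 in the 3 batches, where the batch with -1.27 had that replicate as its only control. Among 156 called member-by-time-by-batch values, it was the single case with a sign unlike that of the fit over all arrays. The 156 values cover only the 22 members described in full, at times when they were called on these same arrays, which favours like signs. Cyp3a16, whose promoter is printed beside that of Cyp3a44, had ratios of 0.50 (adjusted p = 0.0082), 0.29 and 0.26, and only the first was called. Cyp3a41a was higher at ZT8 only (0.30, adjusted p = 0.022), and Cyp3a25 lower at ZT12 only (-0.58, 0.046).

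Read by sex bias, 6 of 9 tested female-biased genes were higher and 0 lower at ZT8, 6 higher and 1 lower at ZT12, and 1 higher and 1 lower at ZT16, with median ratios of 0.50, 0.80 and 0.15. Among all genes, 16.7%, 19.6% and 19.9% were called higher and 18.7%, 22.6% and 20.0% lower at the 3 times. Cyp2c39, kept only through the knockouts, is 1 of the 6 female-biased genes higher at ZT8 and at ZT12. The female-biased gene lower at ZT12 and ZT16 was Cyp2a4, whose probe is also listed for Cyp2a5. The Cyp2c40 and Cyp2c69 probes are listed for each other, the Cyp2b9 probe also for Cyp2b10 and the Cyp4a12a probe also for Cyp4a12b. These genes may therefore not count separately. In ZT8 controls the Cyp3a16 and Cyp3a41a probes had medians of 5.34 and 8.20, and whether they also read other Cyp3a transcripts was not tested. Of 4 male-biased genes, 3 were lower at each time (Cyp2d9, Cyp4a12a and Cyp4a12b), and Cyp2u1 was higher at ZT8 and ZT12 by its brightest probe alone. Cux2, a transcription factor that is itself female-biased in mouse liver, was higher in these male knockouts, by 5.50 at ZT8, 4.96 at ZT12 and 3.44 at ZT16, with controls well above background on 2, 5 and 5 of 6 arrays. Stat5b was higher at ZT12 (0.47) and ZT16 (0.57), and Bcl6 did not pass at any time.

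**Figure D3:**
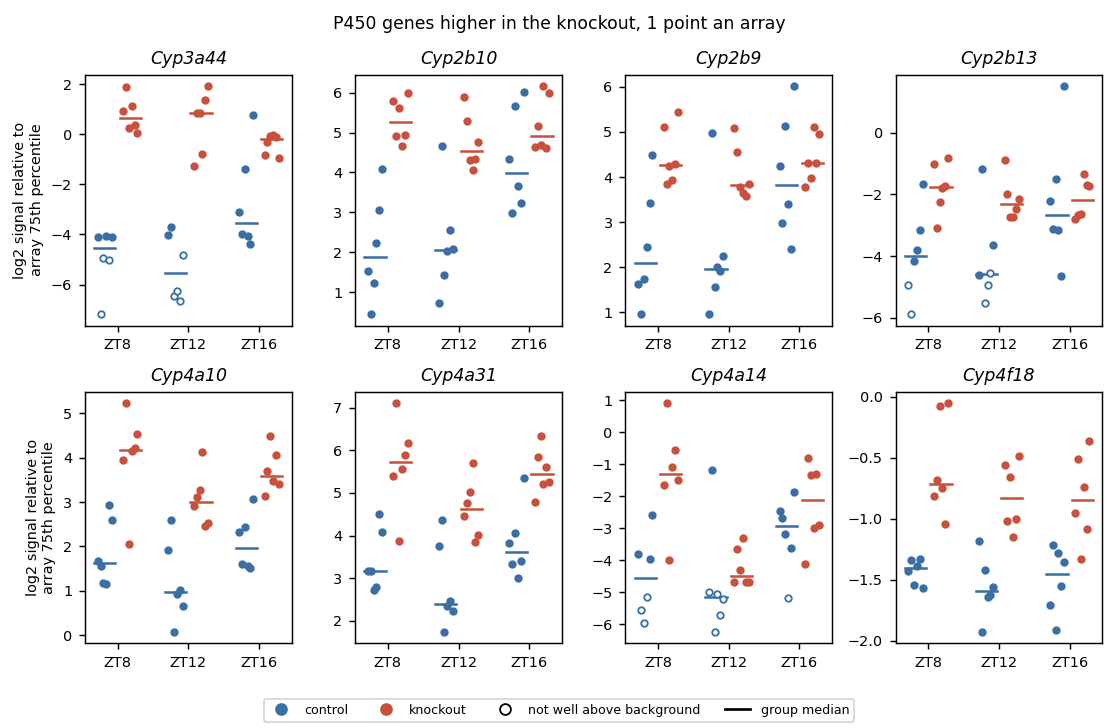
Log2 signal relative to the array's 75th percentile for 8 members higher in the knockout at 1 or more times, by time, with 1 point per array, controls blue, knockouts red, open points not well above background and lines at group medians. Cyp3a44 is apart at ZT8 and ZT12, and the Cyp2b control medians at ZT16 (4.00 for Cyp2b10, 3.83 for Cyp2b9) lie nearer to the knockouts than at ZT8 (1.88 and 2.08).

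For 6 members the genotype difference depended on the time of day by the F test (8.46% of all genes), and for the same number the ZT16 and ZT8 ratios differed when compared directly (9.75% of all genes): Cyp2a4, Cyp2a5, Cyp2a22, Cyp2u1, Cyp3a44 and Cyp4b1. Between ZT8 and ZT12 the ratio of 1 member, Cyp4b1, differed (1.25% of all genes), and between ZT12 and ZT16 those of 2, Cyp2a5 and Cyp2u1 (1.95%). The members' shares, 8.82%, 1.47% and 2.94%, were near those of all genes.

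The Cyp2a genes gave 3 of the 6. Cyp2a5, which hydroxylates coumarin, lay at 8.44 to 8.72 (median 8.65) in ZT8 controls and 7.84 to 8.87 (median 8.42) in knockouts, at 9.02 to 9.19 (median 9.12) and 7.79 to 8.80 (median 8.17) at ZT12, and at 8.55 to 9.22 (median 8.83) and 6.12 to 7.81 (median 6.98) at ZT16. The groups overlapped at ZT8 and were separate at ZT12 and ZT16. Ratios went from -0.23 ± 0.19 (adjusted p = 0.35) to -0.90 (0.00029) and -1.96 (1.1e-09). The ZT16 ratio minus that at ZT8 was -1.73 ± 0.27 (adjusted p = 8e-05), and within knockouts the level fell from ZT8 to ZT16 by 1.43.

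Cyp2a4, a female-biased steroid hydroxylase whose probe is also listed for Cyp2a5, had control medians of 7.77, 8.53 and 8.07 and knockout medians of 8.12, 7.60 and 6.47. Controls ranged over 7.48 to 7.92, 8.17 to 8.58 and 7.65 to 8.55, and knockouts over 7.39 to 8.39, 7.23 to 8.52 and 5.50 to 7.61. Only the ZT16 groups were separate. Ratios were 0.22 (adjusted p = 0.49), -0.76 (0.0097) and -1.70 (9.7e-07), and the difference between ZT16 and ZT8 was -1.92 ± 0.33 (0.0003).

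Cyp2a22 was already low at ZT8. It lay at 1.98 to 2.58 (median 2.44) against 0.39 to 1.98 (median 0.64), at ZT12 at 2.48 to 3.09 (median 2.83) against 0.45 to 1.64 (median 0.97), and at ZT16 at 2.42 to 3.29 (median 2.63) against -0.42 to 0.41 (median 0.00). The groups were separate, by little at ZT8. Ratios were -1.47 ± 0.22, -1.87 and -2.76, and the last minus the first was -1.29 ± 0.31 (adjusted p = 0.0063). Cyp2a12, the other Cyp2a gene, was lower without overlap at all times, by a similar amount (-1.52, -1.62 and -1.69), and the change of its ratio, -0.17, did not pass (adjusted p = 0.72). Its controls lay at 6.96 to 7.41 and its knockouts at 5.11 to 6.11 over the 3 times.

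Cyp4b1, which oxidises fatty acids and toxins such as ipomeanol, changed side. It lay at 0.29 to 0.86 (median 0.63) in ZT8 controls and -0.01 to 0.83 (median 0.32) in knockouts, at -0.14 to 0.53 (median 0.26) and 0.53 to 1.06 (median 0.88) at ZT12, and at 0.17 to 0.62 (median 0.47) and 0.94 to 1.12 (median 1.00) at ZT16. Groups overlapped at ZT8, met at ZT12 and were separate at ZT16. Ratios were -0.28 ± 0.12 (adjusted p = 0.082), 0.65 (0.0001) and 0.58 (0.00043), with a difference between ZT16 and ZT8 of 0.86 ± 0.18 (0.0016).

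The brightest Cyp2u1 probe lay at 7.58 to 7.98 (median 7.76) in ZT8 controls and 8.47 to 8.89 (median 8.68) in knockouts, at 7.75 to 8.46 (median 8.22) and 8.73 to 9.13 (median 8.95) at ZT12, and at 8.00 to 8.33 (median 8.08) and 8.12 to 8.54 (median 8.29) at ZT16. The groups were separate at ZT8 and ZT12 only. Ratios were 0.95 ± 0.10 (adjusted p = 4e-09), 0.78 (1.1e-07) and 0.23 (0.053), and the difference between ZT16 and ZT8 was -0.72 ± 0.14 (0.00071). The other 2 probes of this fatty acid hydroxylase gave the opposite sign, with -1.79, -1.60 and -0.43 for one and -1.50, -1.33 and -0.40 for the other. No direction is therefore given for the gene, though the counts of members include its brightest probe as higher at ZT8 and ZT12. The printed bases of that probe end in a gt repeat. Of 16 members with more than 1 kept probe, Cyp2u1 was the only one whose called probes opposed each other with all arrays. The 2 Cyp2c50 probes also had opposite signs, but only the dimmer one was called.

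For Cyp3a44 the ZT16 ratio minus the ZT8 ratio was -3.33 ± 1.02 (adjusted p = 0.034). Without control ZT16 replicate 6 the difference was -2.45 (adjusted p = 0.078), and it was no longer called. The call was lost on leaving out any 1 of 6 arrays.

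**Figure D4:**
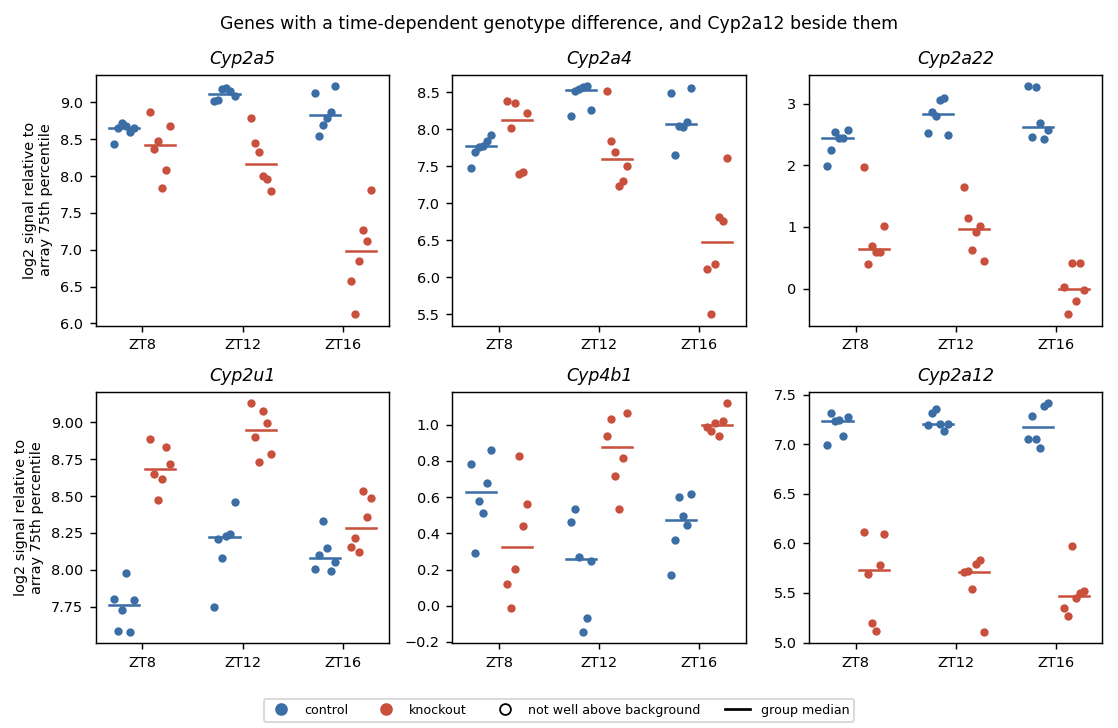
Log2 signal relative to the array's 75th percentile by time for 5 of the 6 members with a time-dependent genotype difference and for Cyp2a12, with 1 point per array, controls blue, knockouts red and lines at group medians. Cyp2a5 and Cyp2a4 knockouts sink at ZT16 to medians of 6.98 and 6.47, whereas Cyp2a12 stays near the same separation; the Cyp2u1 panel shows only its brightest probe.

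Few members changed between times within a genotype. Between ZT8 and ZT16, 10 members changed in controls (26.6% of all genes), 4 up and 6 down, and 10 in knockouts (28.9% of all genes), 3 up and 7 down. Among all genes, the shares up and down were 13.4% and 13.2% in controls, and 15.5% and 13.4% in knockouts. Between ZT8 and ZT12 the counts were 5 for controls (14.8%) and 4 for knockouts (13.2%), and between ZT12 and ZT16 they were 3 (3.62%) and 5 (12.6%). At 14.7% of members for the whole span, both shares were below those of all genes.

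Cyp2g1, best known from olfactory tissue, had the largest change over the day. Controls lay at -1.05 to 0.13 (median -0.35) at ZT8, -2.72 to -0.93 (median -1.56) at ZT12 and -4.25 to -2.48 (median -2.92) at ZT16. Knockouts lay at -1.63 to -0.53 (median -1.40), -4.97 to -2.39 (median -4.11) and -6.93 to -4.60 (median -5.60), and the probe was well above background on 1 of 6 arrays in the last group. From ZT8 to ZT16 it fell by 2.79 in controls (adjusted p = 1.5e-06) and by 4.37 in knockouts (6.9e-10).

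The genotype ratio of Cyp2g1 was -0.95 ± 0.38 (adjusted p = 0.053) at ZT8, -2.14 (3.9e-05) at ZT12 and -2.53 (3.8e-06) at ZT16, where the groups were separate. With normexp the last 2 were -1.14 and -0.76. The difference between ZT16 and ZT8, -1.59 ± 0.54, did not pass (adjusted p = 0.06). Cyp3a13 rose with time in both genotypes, by 0.56 in controls and 0.45 in knockouts. Cyp2r1, the vitamin D hydroxylase, fell with time in both (-0.31 and -0.41) and was lower in knockouts without overlap at each time (-0.60, -0.76 and -0.70).

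In controls, Cyp2c55 fell from ZT8 to ZT16 (-1.19 ± 0.30, adjusted p = 0.0028) and Cyp3a44 rose (2.20 ± 0.72, 0.022). The call of the latter was lost on leaving out any 1 of 3 arrays. Without control ZT16 replicate 6 the Cyp3a44 change was 1.34 (adjusted p = 0.13). In knockouts Cyp2f2 rose by 1.37 (adjusted p = 0.036), and without knockout ZT8 replicate 2 the change was 1.00 (0.14). The Cyp2f2 call was lost on leaving out any 1 of 6 arrays.

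The Cyp4f genes and Cyp4v3, which hydroxylate leukotrienes and fatty acids, split. Of these 7 omega hydroxylases (6 Cyp4f genes and Cyp4v3), 2 were higher and 2 lower at each time. Cyp4f14 was lower (-1.07, -0.69 and -1.11), as was Cyp4v3 (-0.83, -1.01 and -1.31), both without overlap at ZT8 and ZT16. Cyp4v3 controls lay at 5.44 to 6.28 and knockouts at 4.52 to 5.46 over the 3 times. Cyp4f16 was higher without overlap at each time (0.59, 0.68 and 0.72). Cyp4f13, Cyp4f15 and Cyp4f17 were not called with all arrays, and Cyp4f39, which is not on the list, was lower at ZT12 (-0.77).

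Cyp4f18, known from neutrophils and macrophages, had control medians of -1.41, -1.59 and -1.45 and knockout medians of -0.71, -0.83 and -0.84, and ratios of 0.82, 0.79 and 0.66, all called. Controls ranged over -1.57 to -1.33, -1.93 to -1.19 and -1.91 to -1.21, and knockouts over -1.04 to -0.05, -1.15 to -0.48 and -1.33 to -0.36. Groups were separate at ZT8 and, by little, at ZT12. Of 6 macrophage markers, 1 was higher at ZT8, 4 at ZT12 and 1 at ZT16 (16.7%, 19.6% and 19.9% of all genes), with none lower. The mean level of these markers ran from 1.57 to 2.57 in ZT8 controls and 2.16 to 3.49 in knockouts. It ran over 1.45 to 2.92 and 2.41 to 3.82 at ZT12, and 1.82 to 3.42 and 2.65 to 4.05 at ZT16. Their part in the Cyp4f18 result was not tested. Of 6 endothelial markers, 0, 5 and 4 were higher at the 3 times, with a mean level of 0.69 to 1.02 in ZT12 controls and 1.11 to 1.76 in knockouts.

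The partners that P450 enzymes depend on were mostly lower. Of 13 genes for electron donors and haem supply, 4 were higher and 7 lower at ZT8, 2 and 8 at ZT12, and 3 and 8 at ZT16. Their medians were -0.24, -0.32 and -0.33. Over all genes, 16.7%, 19.6% and 19.9% were higher and 18.7%, 22.6% and 20.0% lower. Cyb5b, which encodes a form of cytochrome b5, was lower (-0.74, -1.05 and -0.71), as was Cyb5r3 (-0.41, -0.49 and -0.54). Pgrmc1, which binds haem and P450s (-0.53, -0.60 and -0.54), and the haem synthesis enzymes Cpox (-0.65, -1.10 and -1.24) and Urod were also lower. Por, the P450 reductase, was higher at ZT8 (1.38, adjusted p = 3.4e-09) and ZT12 (0.86) and not at ZT16 (0.18, 0.31), and its ratio depended on time (F test, adjusted p = 0.00058). Alas1, which makes the first haem precursor, was higher at ZT8 only (1.34, 0.0023), and Hmox1, which degrades haem, at each time (0.80, 0.79 and 0.81).

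Among 23 regulators of P450 genes, 4 were higher and 7 lower at ZT8, 4 and 9 at ZT12, and 3 and 9 at ZT16. Their medians were -0.05, -0.18 and -0.21. The all-gene shares were 16.7%, 19.6% and 19.9% higher and 18.7%, 22.6% and 20.0% lower. Nr1i2, which encodes PXR, was higher at ZT8 (0.47), not called at ZT12 (-0.17) and lower at ZT16 (-0.71). Nr1i3, which encodes CAR, was lower at ZT12 (-0.63) and ZT16 (-0.40), as was Ppara (-0.93 and -0.89), and the higher Cyp4a10 and Cyp4a31 signals stood beside a lower Ppara signal at those times. Ppargc1a, a coactivator of PPARα among others, was higher (2.19, 2.20 and 1.89). Nr1h4, which encodes the bile acid receptor FXR (-0.53, -1.21 and -1.42), Nr3c1, Cebpa and Hlf were lower at each time. Of the clock-driven factors Dbp, Tef and Hlf, all 3 were lower at ZT12 (-0.72, -0.32 and -1.05) and at ZT16 (-1.32, -1.23 and -1.37). None of these relations to the P450 genes was tested.

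**Figure D5:**
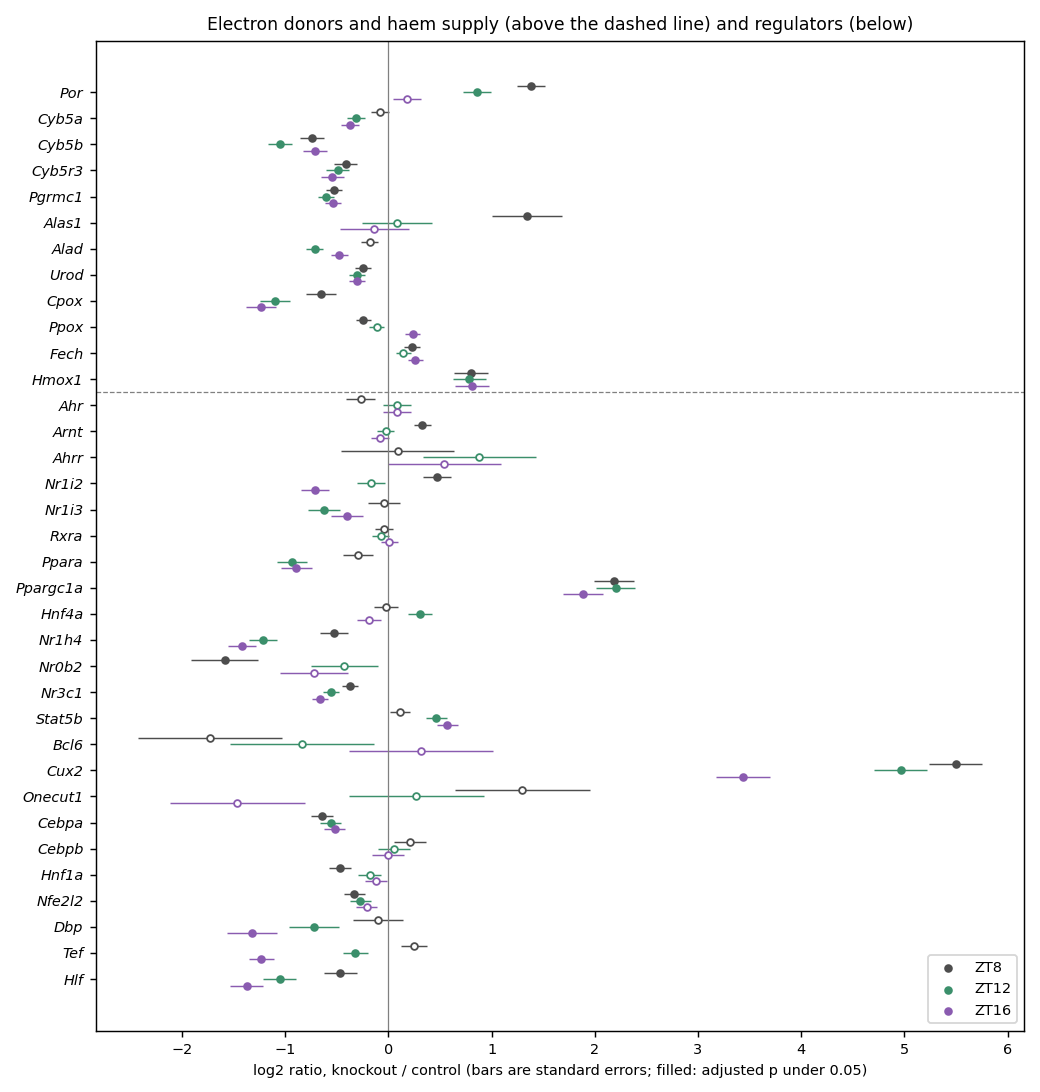
Log2 ratio of knockout over control at ZT8, ZT12 and ZT16 for 12 of the 13 genes of electron donors and haem supply (above the dashed line) and the 23 regulators (below it), with bars for standard errors and filled points for an adjusted p under 0.05. Por goes from 1.38 at ZT8 to 0.18 at ZT16, Cux2 lies farthest to the right, and Nr1i2 changes side between ZT8 (0.47) and ZT16 (-0.71).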

How the data were processed

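The scanner files hold intensity values extracted with Agilent Feature Extraction 10.10.1.1, per the file headers, from SurePrint G3 Mouse GE v2 arrays with 1 dye (Cy3) and 200 ng of RNA per the labels. The processed signal is background subtracted and not normalized between arrays, and flags of 0 or 1 for spots, also deposited, mark those above background, saturated or outlying. The authors' deposited table of log2 values (32801 probes) had identical sorted columns, so it is quantile normalized; its further steps are not given in the sources used here, and it served as an alternative.

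Outlier spots were dropped, signals were taken to log2, each array's 75th percentile was subtracted and spots of a probe were averaged. Probes well above background on at least 6 of 36 arrays were kept, 93 with a missing value were dropped, and each gene took its brightest probe. No spot was saturated. Names follow RefSeq (GRCm38.p6) through the accessions, and members keep the name in the files. limma 3.58.1 in R 4.3.3 fitted the 6 groups and wash batch (3 batches, holding 11, 12 and 13 arrays and every group) over all 36 arrays, with Benjamini-Hochberg adjustment and a threshold of 0.05. The fit was tested on simulated data. P-values measure the spread between mice; arrays give no counts, and their number limits the precision. A probe below background on every array of a group has only a bound, taken from the lowest signal well above background.

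Members and gene lists were chosen with earlier results of these data known. Given in full are the 5 largest called rises and falls in each genotype comparison, the 6 smallest F test p-values and the 4 largest changes from ZT8 to ZT16 in each genotype (22 members); others, such as Cyp2j5 and Cyp4f18, were chosen after their values were seen. Replicate numbers did not pair the samples: same-numbered arrays correlated at -0.34 to 0.20 over 90 pairs after group means were removed. The values of 1 listed gene of haem supply are not reported here.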

Additional observations from a re-analysis of the deposited data

Results flagged for a closer look

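In 9 of 132 groups of 6 arrays (22 members in 6 groups), 1 array lay farther from the rest than Dixon's 95% limit for the gap over the range allows; chance flags about 1 in 20 such groups. Control ZT16 replicate 6 was low for Cyp2d9 (3.54, others 4.81 to 5.16), Cyp2d34 (-1.46, others -0.07 to 0.31) and Cyp2c55 (-2.73, others -1.64 to -1.17). Control ZT12 replicate 2 was high for Cyp2b9 (4.97, others 0.96 to 2.26) and Cyp4a14 (-1.18, others -6.22 to -4.99). Knockout ZT16 replicate 6 was low for Cyp2d9 (1.67, others 2.94 to 3.39) and Cyp2d34 (-3.95, others -2.53 to -1.84). Knockout ZT8 replicate 3 was low for Cyp2c44 (4.97, others 6.12 to 6.55), and control ZT8 replicate 2 was low for Cyp3a44 (-7.18, others -5.04 to -4.05), where the probe is near background.

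The genotype ratio differed between ZT16 and ZT8 for 6 members, by the limma test of that difference: Cyp2a4 (-1.92), Cyp2a5 (-1.73), Cyp2a22 (-1.29), Cyp2u1 (-0.72, brightest probe; 0.58 for the mean of its probes), Cyp3a44 (-3.33) and Cyp4b1 (0.86).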

How the results depend on the processing

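The counts of called members stayed within 1.5 times the reported count under every alternative run: normexp, quantile normalization, the authors' deposited table, no filter on dim probes, probes detected on all arrays, the mean of a gene's probes, no wash batch term, slide as a random block, only the groups compared (not run for the F test) and each array left out. With the replicate block the counts were 13 higher and 24 lower at ZT8, 16 and 28 at ZT12, 8 and 26 at ZT16, 10 and 10 for the changes over time in controls and knockouts, and 6 and 6 for the difference between ZT16 and ZT8 and the F test; numbers do not pair the mice, since only 8 of 36 arrays correlated best with one of their own number. Leaving out 1 array gave 11 to 17 higher and 23 to 26 lower at ZT8, 13 to 17 and 27 to 31 at ZT12, and 7 to 10 and 26 to 28 at ZT16. Of 773 alternative values for 66 results on named members, 746 kept direction and side of the threshold, 24 kept direction but lost the call (Cyp2b13, Cyp1b1, Cyp3a44 and Cyp2f2) and 3 reversed, all of Cyp2u1 with the mean of its probes (-0.78 at ZT8, -0.72 at ZT12 and 0.58 for the difference between ZT16 and ZT8). Omitting the 3 arrays that stood apart, an alternative chosen after seeing the data, gave 40 called members at ZT8 (35 of them among the 37), 47 at ZT12 (45 shared) and 37 at ZT16 (34 shared). The alternatives moved the median of all genes by under 0.1. For 12 members not well above background on all arrays, the size of a ratio depends on the background treatment.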

Other observations

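The pseudogene probes kept out by the -ps rule were measured in the same fit. Cyp2d37-ps, in the Cyp2d subfamily, was lower without overlap at all 3 times (-0.80, -1.13 and -0.84). Cyp2c53-ps was lower at ZT12 (-1.14) and ZT16 (-1.25). Cyp4f41-ps was higher at ZT16 (2.20), where 4 of 6 knockout arrays were well above background.

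Of 13 genes of the other P450 families, which make or break down sterols, bile acids and retinoids, 3 were higher and 1 lower at ZT8, 2 and 2 at ZT12, and 1 and 3 at ZT16. Of all genes tested, 35.4%, 42.2% and 39.9% were called in either direction at these times. Cyp39a1, an oxysterol hydroxylase, was higher at ZT8 (1.18) and ZT12 (1.30). Cyp8b1, which makes cholic acid, was higher at ZT16 (1.10), and Cyp26a1, which breaks down retinoic acid, at ZT12 (1.49). Cyp51, of cholesterol synthesis, was lower at ZT8 (-0.72) and ZT16 (-0.63). Cyp7a1 and Cyp7b1, which start bile acid synthesis, were not called at any time.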
